A study of Mus musculus with 2 samples.

Results

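The circadian clock genes described here are *Arntl*, *Clock*, *Npas2*, *Per1*, *Per2*, *Per3*, *Cry1*, *Nr1d1*, *Nr1d2* and *Dbp*, 10 genes taken by name. Their accessible regions were all distinct regions of the ATAC-seq table whose closest transcription start site (TSS) belonged to one of them, which gave 41 of the 69549 regions listed. Regions centred at most 1 kb from the TSS listed for the gene were taken as promoter regions, which gave 11 of the 41, out of 14387 promoter regions in the whole table. The other 30 regions lay upstream of the genes, inside them or beyond them. No region was matched through an Ensembl identifier alone, since 0 of the 41 had a blank gene symbol.

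In ATAC-seq, a hyperactive transposase (Tn5) inserts sequencing adaptors where chromatin is open, and the reads gathered on a stretch of DNA report its accessibility. The study profiled liver chromatin to ask how loss of *Mettl3*, which encodes the catalytic subunit of the m6A RNA methyltransferase complex, changes open chromatin. The *Mettl3* flox/flox library (flox/flox below) was made from livers carrying floxed *Mettl3* alleles without Cre. The *Mettl3*-HKO library (HKO below) was made from livers with the same floxed alleles plus Alb-Cre, a Cre driven by the albumin promoter, which acts in hepatocytes and leaves *Mettl3* in the other cells of the liver. All mice were on the C57BL/6 background, ate normal chow and were 8 weeks old, and each library was a pool of 4 mice. The groups therefore have 1 library each, with no replicate error and no test across animals. Every interval below covers counting error only. The authors kept duplicate reads for peak calling, and whether the counts hold duplicates is not given. The hour at which livers were taken is not given in the sources used here, so a difference in clock phase between the pools and a difference due to genotype cannot be told apart.

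The molecular clock is a feedback loop of transcription. The activators BMAL1 (encoded by *Arntl*) and CLOCK, or its paralogue NPAS2, bind E-box elements as a dimer and switch on the *Per* and *Cry* genes, whose proteins return to the nucleus and repress the activators. A second loop runs through the nuclear receptors REV-ERB alpha and beta (*Nr1d1* and *Nr1d2*), which repress *Arntl* and compete with ROR receptors for their sites, and the clock drives output factors such as DBP, which binds D-box elements. In the liver this system times much of carbohydrate, lipid and bile acid metabolism.

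The library totals by which the authors scaled their counts were 52826202 for flox/flox and 58038305 for HKO, and 31.7% and 22.3% of these totals lay on the listed regions. The log2 ratio, HKO over flox/flox throughout, was computed on the scale of those totals, with 1 added to each count. On that scale the median log2 ratio was −0.38 over all regions and −0.56 over all promoter regions, so a ratio was also given after centring, that is, after subtracting the median of all regions. The region at the *Mettl3* promoter held 566 and 392 counts, which does not check the genotype, since open chromatin at a start site does not measure the deletion of exons. Of the hepatocyte markers, 8 of 8 had a promoter region, with log2 ratios from −1.08 to 0.015 and a median of −0.68. Of the endothelial markers, 7 of 8 had a promoter region, and their log2 ratios ran from 0.14 to 1.78. At least 2-fold higher in HKO were 5 of these 7, against 4.07% of all promoter regions. Those 5 rested on low counts, 11 to 25 in flox/flox and 39 to 89 in HKO. Summed over all its regions, *Stab2* had fewer counts in HKO (661 and 448), and the other endothelial markers had more. The counts of flox/flox and HKO summed over all regions were 1736 and 2399 for the endothelial markers, against 27648 and 21820 for the hepatocyte markers. Macrophage, stellate and cholangiocyte markers had a promoter region for 2 of 8, 2 of 6 and 3 of 5 genes, and *Cd68*, *Vsig4*, *Lrat*, *Dcn*, *Des*, *Pdgfrb*, *Krt19* and *Krt7* had no region of their own. Summed over all regions, the counts were 966 and 714 for macrophage, 727 and 175 for stellate and 1119 and 1121 for cholangiocyte markers, with *Marco* alone at 463 and 35 and *Reln* alone at 690 and 132. Without *Marco* the macrophage sums were 503 and 679, with *Adgre1* still lower in HKO (125 and 91) and the other genes with a region higher. Without *Reln* the stellate sums were 37 and 43, from *Col1a1* alone. At promoter regions of the 3 lists the log2 ratios ran from 0.53 to 2.05, from −2.51 to 0.076 and from −0.52 to 1.19. In whole liver, fewer cells of a type and less open chromatin per cell cannot be told apart, and the part of these marker differences in the clock gene values was not tested.

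RefSeq promoter windows on GRCm38.p6, each running from 250 bases before to 50 bases after a start, were found for 9 of the 10 clock genes, with *Per2* not among them. The stretches below are printed because they hold the clock elements that were found, or because they belong to the promoters with the lowest and nearly the highest log2 ratio. All lie wholly in accessible regions of the table and read 5′ to 3′ on the strand of the gene, and capitals mark a clock element. *Cry1*, *Per1*, *Per3*, *Nr1d1*, *Npas2* and *Dbp* are shown upstream of their starts, at chr10:85185065-85185304 (minus strand), chr11:69098699-69098947 (plus), chr4:151044708-151044915 (minus), chr11:98775378-98775627 (minus), chr1:39194022-39194211 (plus) and chr7:45704997-45705087 (plus). The 30 bases of *Arntl*, at chr7:113207530-113207559 (plus), lie just after the later of its RefSeq starts.
Cry1: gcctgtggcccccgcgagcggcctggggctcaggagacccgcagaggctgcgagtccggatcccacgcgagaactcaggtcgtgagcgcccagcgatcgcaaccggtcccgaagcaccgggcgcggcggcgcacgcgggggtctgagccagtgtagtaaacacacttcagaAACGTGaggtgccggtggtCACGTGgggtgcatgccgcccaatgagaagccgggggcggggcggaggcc
Per1: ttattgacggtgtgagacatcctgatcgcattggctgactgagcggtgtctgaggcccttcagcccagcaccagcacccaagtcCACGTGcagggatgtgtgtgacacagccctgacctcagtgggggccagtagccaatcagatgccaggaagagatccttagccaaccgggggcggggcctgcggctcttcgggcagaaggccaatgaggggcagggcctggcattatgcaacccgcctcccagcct
Per3: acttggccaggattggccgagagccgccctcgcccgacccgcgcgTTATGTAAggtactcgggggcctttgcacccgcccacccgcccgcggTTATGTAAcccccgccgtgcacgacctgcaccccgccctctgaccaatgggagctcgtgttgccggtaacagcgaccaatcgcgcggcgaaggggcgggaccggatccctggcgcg
Nr1d1: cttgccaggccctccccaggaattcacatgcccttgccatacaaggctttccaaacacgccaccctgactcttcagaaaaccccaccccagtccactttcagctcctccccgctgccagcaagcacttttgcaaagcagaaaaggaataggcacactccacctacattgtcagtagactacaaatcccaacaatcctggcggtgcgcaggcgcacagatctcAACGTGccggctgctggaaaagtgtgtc
Arntl: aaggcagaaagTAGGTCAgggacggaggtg
Npas2: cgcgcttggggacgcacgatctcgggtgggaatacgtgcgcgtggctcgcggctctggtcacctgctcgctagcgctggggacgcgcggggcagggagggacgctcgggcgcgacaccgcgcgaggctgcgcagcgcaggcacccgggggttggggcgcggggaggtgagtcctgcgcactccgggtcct
Dbp: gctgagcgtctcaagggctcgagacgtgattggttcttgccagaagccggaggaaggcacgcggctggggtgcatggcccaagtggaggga

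The E-box CACGTG was found in *Cry1*, starting 60 bases before the RefSeq start, and in *Per1*, 166 bases before it. The variant E-box CACGTT, read on the other strand as AACGTG, was found in *Cry1* at 79 bases and in *Nr1d1* at 28 bases before the start. *Per3* held the D-box TTATGTAA in 2 copies, 205 and 158 bases before its start. *Arntl* held a Rev-erb/ROR element TAGGTCA 30 bases after the later of its RefSeq starts, at 113207511, and beyond the window of the earlier start. Among all 32851 RefSeq windows, searched on both strands, 7.15% held CACGTG, 4.68% held CACGTT, 1.06% held a D-box (TTATGTAA or TTACGTAA) and 6.45% held a Rev-erb/ROR element (TAGGTCA or TGGGTCA). The cyclic AMP response element TGACGTCA was in 1.79% of windows and in 0 of the 9 clock genes. A match describes the letters and is not a binding site, and its absence says only that these letters are not in the window. The clock windows had a GC content of 47.0% to 76.7%, against a median of 52.7% for all windows.

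Most clock gene promoters were less accessible in the HKO library on the authors' scale, and to about the same degree as promoters in general. The log2 ratio was below 0 for 10 of the 11 promoter regions (90.9%), against 83.9% of all promoter regions. The median was −0.61 for the clock promoters and −0.56 for all promoters. At least 2-fold lower were 2 of 11 (18.2%), the promoter of *Npas2* and the second promoter region of *Cry1*, against a background of 16.3%. At least 2-fold higher were 0 of 11, against 4.07%. After centring, 8 of 11 were below 0, against 66.4% of all promoters, 1 of 11 (*Npas2*) was at least 2-fold lower, against 5.00%, and 0 were at least 2-fold higher, against 6.90%. These shares lie near the background, and what set the clock genes apart from each other was the spread from *Npas2* at the low end to *Dbp* and *Per3* at the high end.

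**Figure D1:**
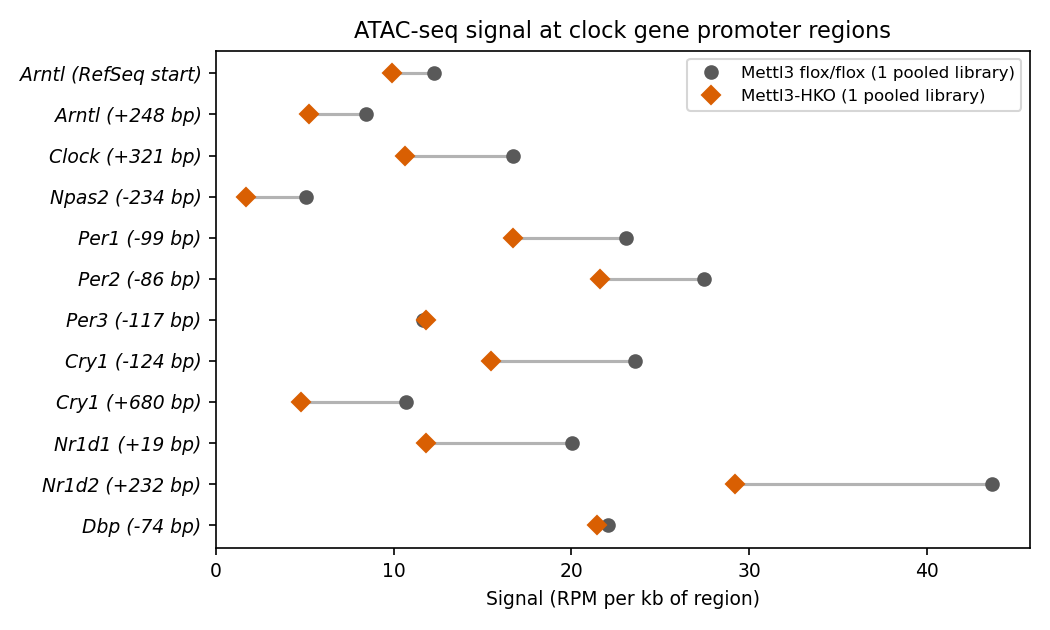
Signal at each clock gene promoter region, in RPM (reads scaled to a common library size) per kb of region, in the flox/flox library (grey circles) and the HKO library (orange diamonds), with the distance of the region from the TSS in brackets and the region over the RefSeq start of *Arntl* added. *Nr1d2* had the strongest promoter in both libraries, and the points of *Dbp* and *Per3* nearly coincide.

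Among the activators, *Npas2* had the lowest ratio of all clock promoters and *Clock* and *Arntl* lay near the general median. *Npas2* encodes a partner of BMAL1 that can stand in for CLOCK. Its promoter region, chr1:39193730-39194227, spans the intergenic side of the listed TSS into the 5′ untranslated region. It ends before the RefSeq start at 39194272, which no listed region covers. The promoter region held 132 counts for flox/flox and 47 for HKO. This is a log2 ratio of −1.61 (95% interval −2.14 to −1.14), or 0.328 of the flox/flox level, and −1.23 after centring. A peak was called there in the flox/flox library and not in the HKO library. The ratio stood at percentile 2.32 of all promoter regions and at percentile 4.25 of the 1000 promoter regions nearest in signal. Per kb, *Npas2* also had the weakest promoter of the 10 genes, at 5.06 RPM per kb against 1.66.

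*Clock* encodes the main partner of BMAL1. Its only region, chr5:76303580-76305363, is centred in intron 1 and held 1575 and 1098 counts, a log2 ratio of −0.66 (−0.77 to −0.54). It was the longest of the clock promoter regions and also overlapped another gene, ENSMUSG00000098449, so its reads cannot be assigned to *Clock* alone.

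*Arntl* encodes BMAL1, the partner that CLOCK and NPAS2 share. The table places its TSS at position 113239754 of chromosome 7, inside the gene as RefSeq draws it (113178471 to 113314126), and the promoter region by that TSS, chr7:113239811-113240195, held 171 and 116 counts, a log2 ratio of −0.69 (−1.05 to −0.35). The 2 RefSeq starts, at 113207465 and 113207511, lie over a region 32286 bp upstream of that TSS, chr7:113206807-113208129, with 857 and 760 counts. This region is longer (1323 bp against 385 bp), and per kb it was stronger by less, at 12.3 and 9.91 RPM per kb against 8.46 and 5.24. There the log2 ratio was −0.31 (−0.45 to −0.17), at percentile 71.3 of all promoter regions. The choice of start thus moved *Arntl* from below to above the promoter median, and the difference between both regions was 0.39 on the log2 scale (0.0079 to 0.77), a comparison that no scaling of the libraries affects.

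The *Per* and *Cry* repressors ran from −1.17 at the second region of *Cry1* to 0.020 at *Per3*. PER and CRY proteins form the complex that shuts down BMAL1 and CLOCK. *Per1* (chr11:69098617-69099082) held 567 and 451 counts, a log2 ratio of −0.47 (−0.65 to −0.29). *Per2* (chr1:91459011-91459811) held 1162 and 1005 counts, a log2 ratio of −0.34 (−0.47 to −0.22). *Per3* (chr4:151044128-151045438) held 805 and 897 counts, a log2 ratio of 0.020 (−0.12 to 0.16). *Per3* was the 1 clock promoter not below 0, and it stood at percentile 84.4 of all promoters and at percentile 98.9 of those nearest in signal. After centring, *Per1* lay at −0.088, *Per2* at 0.032 and *Per3* at 0.40, so the sign for *Per2* depended on the scale.

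*Cry1* had a pair of promoter regions. The main region, chr10:85184715-85185663, covers the TSS and the E-box printed above, and held 1182 and 851 counts, a log2 ratio of −0.61 (−0.74 to −0.48). The second, chr10:85184211-85184557, is centred in exon 1, 680 bp downstream of the TSS, and held 195 and 95 counts, a log2 ratio of −1.17 (−1.54 to −0.81), with a peak in the flox/flox library and not in the HKO library. The second region was lower relative to the main one by a log2 difference of −0.56 (−0.96 to −0.18), which does not depend on the scaling. It was the clock promoter region farthest from its TSS. The next regions, just past the 1 kb limit, were at *Dbp* (1007 bp, log2 ratio −0.26) and *Per1* (1054 bp, −0.99).

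The genes of the REV-ERB receptors had the most accessible promoter of the group and a moderately lower signal in HKO. *Nr1d2* (chr14:18238174-18239617) held 3333 and 2449 counts, a log2 ratio of −0.58 (−0.66 to −0.50), and with 43.7 and 29.2 RPM per kb it stood at percentiles 99.1 and 99.3 of all promoter regions by signal. *Nr1d1* (chr11:98774880-98775748), centred in the 5′ untranslated region 19 bp after the TSS, held 920 and 594 counts, a log2 ratio of −0.77 (−0.92 to −0.62). *Nr1d1* was lower than *Nr1d2* by a log2 difference of −0.19, with an interval of −0.36 to −0.018.

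*Dbp*, an output factor of the PAR bZIP family, had nearly the same promoter signal in both libraries. Its region chr7:45704694-45705335 held 747 counts for flox/flox and 799 for HKO, a log2 ratio of −0.039 (−0.18 to 0.11) and 0.34 after centring. It stood at percentile 82.8 of all promoters and at percentile 98.2 of the 1000 nearest in signal. By signal per kb it moved from percentile 88.6 of all promoter regions in flox/flox to percentile 97.2 in HKO, at 22.1 and 21.5 RPM per kb.

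**Figure D2:**
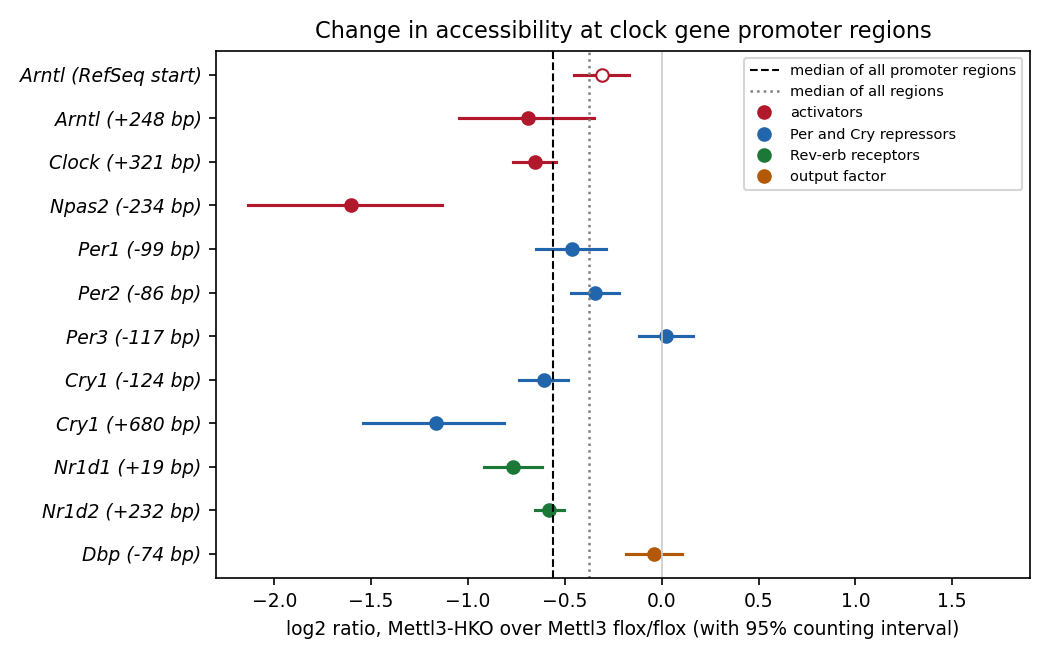
Log2 ratio of HKO over flox/flox on the authors' scale at each clock gene promoter region (points) with its 95% counting interval (lines), coloured by role; the open point is the region over the RefSeq start of *Arntl*. *Npas2* at −1.61 and the second *Cry1* region at −1.17 lie below the median of all promoter regions (dashed, −0.56), and *Dbp* and *Per3* lie above it with intervals that hold 0.

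Set against each other, the clock promoters differed by more than counting error in 37 of 55 pairs, and in 18 pairs the 95% interval of the difference held 0. With a normal interval in place of the exact one the count was again 37 of 55 (67.3%), against 59.5% of all pairs of promoter regions and 61.1% of pairs of like signal, so such differences are common among promoters. Such a difference between promoters of the same libraries does not depend on how the libraries were scaled. *Npas2* was lower than *Dbp* by a log2 difference of −1.59 (−2.12 to −1.07) and lower than *Per3* by −1.65 (−2.18 to −1.13). *Npas2* and the second region of *Cry1* differed by −0.45, with an interval of −1.08 to 0.17. *Dbp* and *Per3*, at the other end, differed by −0.059 (−0.26 to 0.14). Among neighbours in the middle of the order, *Clock* and the main region of *Cry1* differed by −0.046 (−0.22 to 0.12), the main region of *Cry1* and *Nr1d2* by −0.029 (−0.18 to 0.12), and *Per1* and *Per2* by −0.12 (−0.34 to 0.099). *Per2* was lower than *Per3* by −0.37 (−0.55 to −0.18). The order thus had *Npas2* with the second *Cry1* region at the bottom, *Dbp* with *Per3* at the top, and the other genes between them, with several pairs whose interval held 0. Among these pairs were the second *Cry1* region and the *Arntl* promoter region by the listed TSS (−0.48, interval −0.99 to 0.034). The bottom was therefore not wholly apart from the middle.

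**Figure D3:**
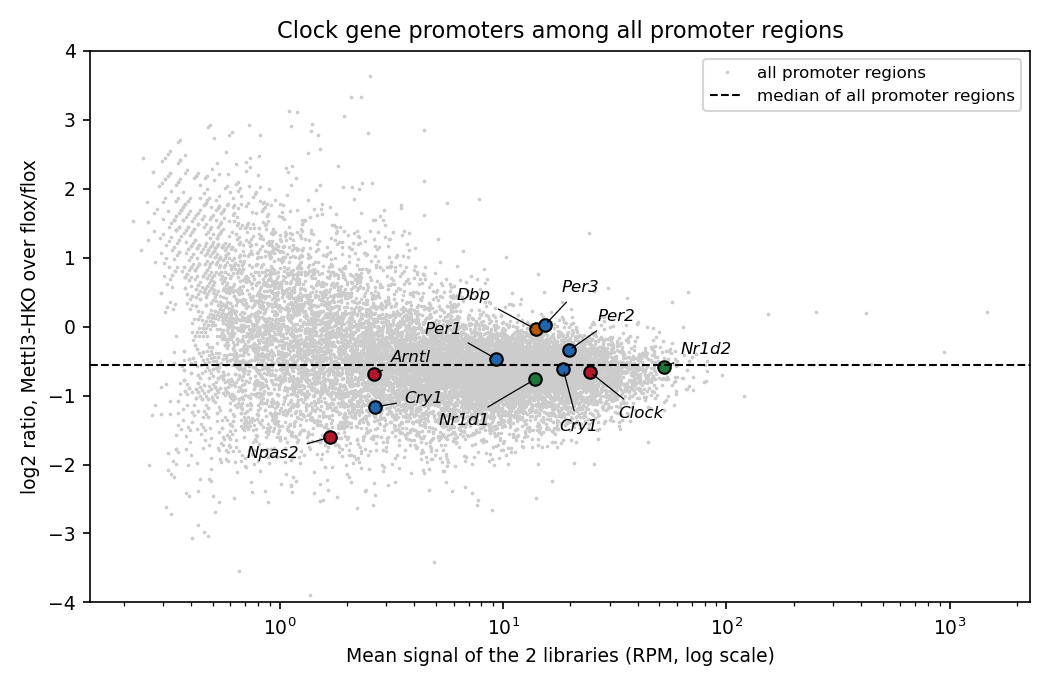
Log2 ratio of HKO over flox/flox against mean signal in RPM (log scale) for all 14387 promoter regions (grey) and the 11 clock gene promoter regions (coloured by role as in the plot of promoter ratios). *Dbp* and *Per3* sit at the upper edge of promoters of like signal, *Npas2* at the lower side, and the others within the bulk.

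Away from the promoters, the median clock gene region had more signal than the median region, and most of these regions too were lower in HKO. The median signal of the 30 regions was 13.2 and 9.88 RPM per kb, against 3.58 and 3.27 for all 55162 regions outside promoters. The log2 ratio was below 0 in 28 of the 30, with a median of −0.44, against 59.8% and −0.27 for all such regions. Strong regions had lower ratios in general, and among the 15627 outside regions whose mean signal fell in the middle 50% of the clock ones, 77.2% were below 0 and the median was −0.54. At least 2-fold lower were 3 of 30, against a background of 18.8% and 22.9% among those of like signal, and at least 2-fold higher were 0 of 30, against 15.6%. After centring, 2 of 30 (6.67%) were at least 2-fold lower, against 8.65%, and 1 of 30 (3.33%) at least 2-fold higher, against 23.5%. A peak was called in both libraries at 23 of the 30 (76.7%, against 56.1% of all regions outside promoters), in flox/flox alone at 5 (16.7%, against 19.1%) and in HKO alone at 2 (6.67%, against 24.9%).

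Outside promoters, the strongest region of a gene below is the one with the highest mean RPM, not corrected for length. The 3 regions at least 2-fold lower were beside *Npas2*, *Cry1* and *Nr1d1*. The region 1347 bp upstream of *Npas2*, chr1:39192394-39193336, held 344 and 124 counts, a log2 ratio of −1.60 (−1.92 to −1.31), the same as its promoter within counting error (difference 0.018, interval −0.57 to 0.62). Both regions closest to the *Npas2* TSS were therefore lower by a like amount. The region 5285 bp upstream of *Cry1*, chr10:85189976-85190724, held 548 and 295 counts, a log2 ratio of −1.03 (−1.24 to −0.82), which was lower than the main *Cry1* promoter region by −0.42 (−0.67 to −0.17). With the region in intron 1 at −0.98 (128 and 71 counts), *Cry1* had 4 of 4 regions below the median of all regions, as had 66.4% of all promoter regions and 45.7% of all regions outside promoters. The region 7915 bp downstream of the *Nr1d1* TSS, chr11:98767275-98767562, held 98 and 32 counts, a log2 ratio of −1.72 (−2.37 to −1.16). It lies beyond the end of *Nr1d1* in the last intron of *Thra*, the thyroid hormone receptor gene that overlaps it tail to tail, so its assignment to *Nr1d1* rests on distance alone.

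**Figure D4:**
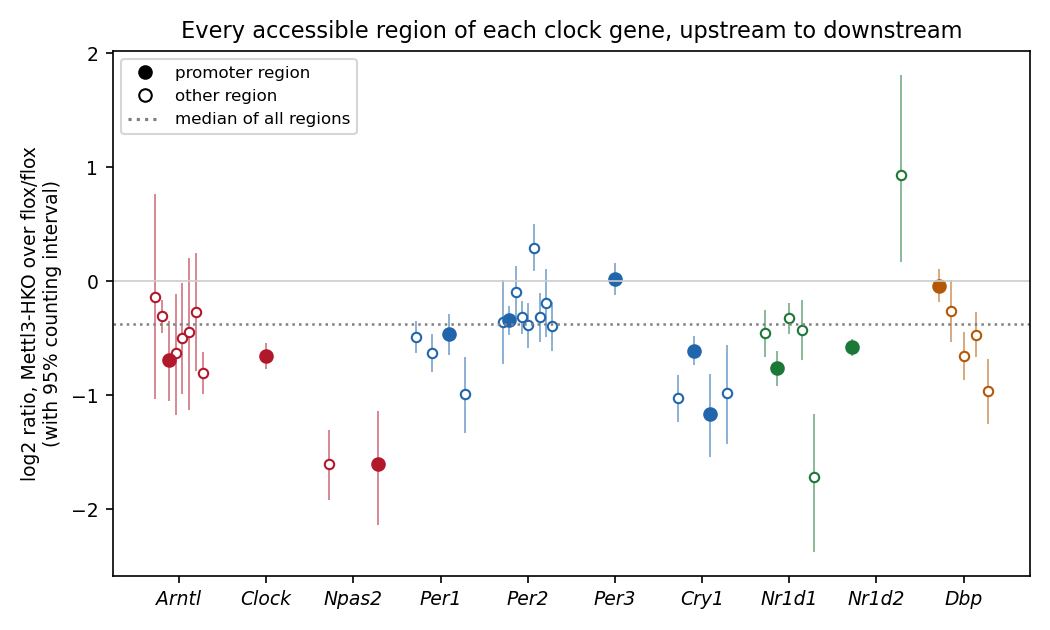
Log2 ratio of HKO over flox/flox for all 41 regions of the 10 clock genes, ordered within each gene from upstream to downstream, with 95% counting intervals (filled, promoter regions; open, other regions; dotted, median of all regions at −0.38). The regions of *Npas2* and *Cry1* lie below the dotted line, 7 of the 9 of *Per2* have intervals that hold it, and the open point of *Nr1d2* rests on 20 and 43 counts.

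Regions of the same gene could differ in their ratios, and *Dbp* and *Nr1d1* held 7 of the 13 such cases. Of the 31 comparisons of a region with the strongest promoter region of its own gene, 13 had an interval that left out 0 and 18 had one that held it. With the normal interval the count was again 13 (41.9%), against 55.7% over all genes with a promoter region. All 4 regions inside *Dbp* had lower ratios than its promoter, from −0.26 in intron 1 to −0.96 in exon 3, and for 3 of these 4 the interval of the difference left out 0. The strongest of them by total signal, in intron 2, held 475 and 377 counts, a log2 ratio of −0.47. The exon 3 region held 284 and 160 counts, with a peak only in flox/flox, and its difference from the promoter was −0.92 (−1.25 to −0.60). Relative to the *Dbp* promoter, 3 of the 4 regions inside the gene were thus lower in HKO whatever the scaling. Among the 1000 outside regions nearest in signal, the 4 stood at percentiles from 27.35 to 71.4. The *Dbp* promoter stood at percentile 98.2 of its like.

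*Per2* had 8 regions outside its promoter. The strongest, in intron 1 at 3354 bp from the TSS, held 819 and 722 counts, a log2 ratio of −0.32. One in intron 6, chr1:91442401-91443025, went the other way, with 331 counts in flox/flox and 446 in HKO, a log2 ratio of 0.29 (0.086 to 0.50). Relative to the *Per2* promoter it was higher by 0.64 (0.40 to 0.88). The other 7 lay between −0.39 and −0.10. The intron 6 region falls outside the naming rule and was picked after its value was seen.

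In *Nr1d1*, the regions in intron 1 and upstream had higher ratios than the promoter. The strongest, in intron 1 at 1356 bp from the TSS, held 936 and 821 counts, a log2 ratio of −0.32, higher than the promoter by 0.44 (0.24 to 0.65). In *Nr1d2*, the 1 region outside the promoter, in intron 2 (chr14:18221155-18221372), held 20 and 43 counts, a log2 ratio of 0.93 (0.17 to 1.81) and 1.31 after centring, with a peak only in HKO. It was the 1 region that was at least 2-fold higher after centring. Among the 1000 outside regions nearest in signal it stood at percentile 71.9, so such ratios are common among regions this weak.

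*Per1* had its strongest outside region 3922 bp upstream of the TSS, chr11:69094675-69095377, over the start that RefSeq gives for the whole gene (69095108). It held 909 and 711 counts, a log2 ratio of −0.49, which differed from the promoter by −0.024 (−0.26 to 0.21). The region in intron 1 at 1054 bp, with 216 and 119 counts, was lower than the *Per1* promoter by −0.53 (−0.91 to −0.15) and had a peak only in flox/flox. Of the 7 outside regions of *Arntl*, the one over its RefSeq starts had the most counts. The one with the lowest ratio, 21008 bp past the TSS of the table, held 606 and 381 counts, a log2 ratio of −0.80, and had more signal per kb (18.6 and 10.7 RPM per kb, against 12.3 and 9.91). All 8 regions of *Arntl* were below 0, as were 83.9% of all promoter regions and 59.8% of all others, but 3 of the 8 had intervals that held 0 and 3 lay above 0 after centring. *Clock* and *Per3* had no region outside the promoter.

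A further 7 regions inside the bodies of clock genes lay closest to the TSS of another gene and were not counted among the 41. The log2 ratio was below 0 in 6 of them, beside 59.8% of all regions outside promoters. In *Npas2* they held 48 and 36 counts in intron 3, 69 and 21 in intron 5, and 19 and 32 in intron 7, log2 ratios of −0.54, −1.81 and 0.59. The intron 7 region, with the fewest counts of the 3, was the one above 0, and its interval of −0.25 to 1.52 held 0. The region in intron 2 of *Cry1* held 53 and 21 counts, a log2 ratio of −1.43. The region in intron 2 of *Clock* held 95 and 63 counts, a log2 ratio of −0.72. In *Per2*, the region in intron 17 held 47 and 46 counts and that in exon 21, the strongest of the 7, held 258 and 223, log2 ratios of −0.17 and −0.35, both above the median of all regions.

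Other genes of the clock pathway, taken from 4 lists of 30 genes, had a promoter region in 23 cases, and 22 of these were below 0 at the strongest such region, against 83.9% of all promoter regions. At least 2-fold lower were 4 of 23 and higher 0 of 23, beside the promoter backgrounds of 16.3% and 4.07% given above, and the median was −0.67 against −0.56 for all promoter regions. Among the PAR bZIP factors and E-box repressors (3 of 5 with a promoter region, median −1.06), *Bhlhe41*, which encodes the repressor DEC2 that competes for E-boxes, held 1269 and 420 counts, a log2 ratio of −1.73 (−1.89 to −1.57). This was percentile 0.55 of the 1000 promoter regions nearest in signal. *Hlf*, which encodes a PAR bZIP relative of DBP, held 330 and 174 counts, a log2 ratio of −1.06, beside −0.039 at *Dbp*. *Nfil3*, whose protein E4BP4 represses through D-boxes, held 1910 and 1085 counts, a log2 ratio of −0.95.

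Among the further repressors and ROR receptors (4 of 5 with a promoter region, median −0.45), *Rorb* held 122 and 50 counts, a log2 ratio of −1.41, and *Rora* held 18 and 34 counts, a log2 ratio of 0.75 with an interval of −0.083 to 1.69. *Cry2*, the paralogue of *Cry1*, held 945 and 817 counts, a log2 ratio of −0.35. Among the kinases, ligases and other modifiers of clock proteins (8 of 9, median −0.58) none was at least 2-fold changed, and the range ran from −0.79 at *Csnk2a1* to −0.28 at *Gsk3b*. Among the rhythmic liver outputs (8 of 11, median −0.78), *Usp2*, which encodes a deubiquitinating enzyme, was at least 2-fold lower, with 725 and 393 counts and a log2 ratio of −1.02, and *Wee1* was the highest at −0.53. After centring, 2 of the 23 were at least 2-fold lower, *Bhlhe41* and *Rorb*, against 5.00% of all promoter regions, and 1 was at least 2-fold higher, *Rora*, against 6.90%.

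**Figure D5:**
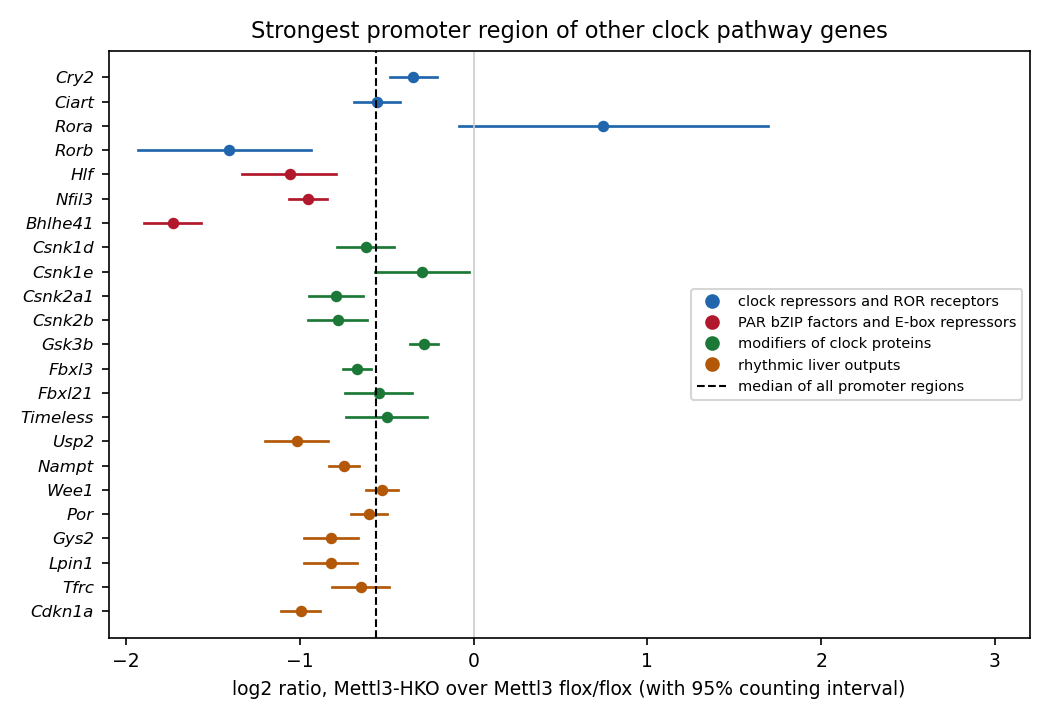
Log2 ratio of HKO over flox/flox, with 95% counting interval, at the strongest promoter region of the 23 other clock pathway genes that had one, coloured by list. *Bhlhe41* (−1.73), *Rorb* (−1.41), *Hlf* (−1.06) and *Usp2* (−1.02) are at least 2-fold lower, and *Rora* is the 1 gene above 0, with the widest interval.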

How the data were processed

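ATAC-seq of 1 *Mettl3* flox/flox and 1 *Mettl3*-HKO pooled liver library was analysed. Adaptors were trimmed by the authors with skewer and reads aligned to GRCm38 with BWA. Peaks were called with MACS2, keeping duplicates. The counting of reads on merged regions, and any shift of read ends for Tn5, are not given in the sources used here. The authors deposited, per region, counts of each library and RPM values, which equal the count plus 1 scaled by a library total that could be recovered from them. The other deposited columns used flag where a peak was called in each library. Log2 ratios and fold enrichments of the authors' own comparison were not used.

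Of 74821 entries, 5272 repeats of a region were left out, and starts were converted to count from 1. For a log2 ratio, the 95% interval came from the Clopper-Pearson bounds on the HKO share of both counts. For a difference between regions, it was the exact conditional interval of the odds ratio, and a normal interval on the counts plus 1 where shares over all regions are given, added after values were seen. Called means at least 2-fold. There is no p-value, since each group has 1 library. Lymphocyte markers are not reported here. The procedure was run on simulated counts that held counting error alone, which is what its intervals assume. That run therefore checks the code, and not how well the intervals fit these libraries. All clock promoter regions are described. Of other regions those called and the strongest per gene are named, and of the pathway lists those called or else the highest and lowest. A few further regions and genes (intron 6 of *Per2*, exon 3 of *Dbp*, intron 1 of *Cry1* and *Per1*, *Nr1d2* intron 2, the lowest of *Arntl*, *Cry2*, *Nfil3* and *Rora*), and the comparison with outside regions of like signal, were picked after values were seen. The marker sums without *Marco* or *Reln* were also added after values were seen. The genes and lists were chosen with earlier results of these data known. Alternatives covered scaling, the count added, the promoter window, a filter on low signal, the value per gene and the *Arntl* start. Values were computed in Python 3.11.15 with scipy 1.17.1, pandas 2.3.3 and numpy 2.4.6, and plotted with matplotlib 3.10.9.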

Additional observations from a re-analysis of the deposited data

How the results depend on the processing

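The scale mattered most. The median log2 ratio of the clock promoter regions, −0.61 on the authors' scale, was −0.23 after centring on all regions, −0.046 after centring on promoter regions and −0.098 when scaled to the counts on regions. Under each of these, 1 promoter region (*Npas2*) was at least 2-fold lower instead of 2, as it was with a promoter window of 500 bp, which leaves out the second *Cry1* region. The median outside promoters, −0.44, was −0.062, 0.12 and 0.072 under the same scalings, so its sign turned under the last 2, and 1 outside region instead of 0 was at least 2-fold higher under each. Adding 10 to each count, a window of 2000 bp and keeping the upper 50% of signal moved neither median by more than counting error and no count by more than 1.5 times. Summing promoter counts per gene (median −0.62) and using the RefSeq start of *Arntl* (−0.58, 2 regions at least 2-fold lower) were run for the promoters alone and moved the median by less than counting error. Per gene, adding 10 moved no promoter outside its counting interval, and scaling to the counts on regions moved all 10. The signs for *Per1*, *Per2* and *Dbp* depended on the scaling. Differences between regions of the same libraries do not depend on it. No paired analysis was possible because each group has 1 library. The number of libraries, and low counts at several outside regions, limit what can be said.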
